A study of Homo sapiens with 12 samples.

Results

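Collagen chains are the polypeptides that assemble in threes into the collagen triple helix. They were taken here as the gene symbols made of COL, a type number, the letter A and a chain number. The rule gave 44 of the 43236 gene symbols counted, and 25 of these held enough counts to enter the 15979 genes tested. The cells were MNNG/HOS, a human osteosarcoma cell line derived from HOS by chemical transformation and labelled HOS-MNNG. They received DMSO, the solvent used as control, or NXP800, a small oral molecule investigated for its effects on osteosarcoma cells, at 300 nM for 6 h or 24 h. Each of the 4 groups held 3 replicate libraries of polyA RNA, 12 in all, and nothing in the labels says whether replicates were separate cultures, so p-values measure the spread between these libraries only. A single cell line stands behind every value, and no gene was deleted or introduced in any group. The comparisons ask which transcripts the compound changes at an early and at a later time.

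Fibrillar collagens (types I, II, III, V, XI, XXIV and XXVII) build the fibres of bone, cartilage and tendon, and type I is the main protein of bone matrix. Type IV collagens form the sheet-like network of basement membranes. The remaining types, called minor here, include the beaded filaments of type VI, the anchoring fibrils of type VII, fibril-associated collagens (FACIT), transmembrane collagens and the multiplexins XV and XVIII. Chains are modified and folded in the endoplasmic reticulum (ER) by prolyl and lysyl hydroxylases and chaperones, exported, trimmed of their propeptides and crosslinked outside the cell.

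The libraries held between 30810614 and 31947656 counts on genes, and collagen chains took 0.413 to 0.585% of them. Reads that fell on no gene made up 6.66 to 8.14% of the 6 h libraries and 2.73 to 3.67% of the 24 h libraries, so NXP800 was compared with DMSO within a time only. Among osteoblast markers, *RUNX2* lay at 20.8 to 42.5 CPM (counts scaled to a library total of 1000000), *SPARC* at 91.7 to 614.6 CPM and *SPP1* at 6.29 to 75 CPM, whereas *SP7*, *BGLAP* and *IBSP* had at most 2 counts in any library and *ALPL* at most 7. The mesenchymal marker *VIM* lay at 3338 to 5891 CPM. The leukocyte marker *PTPRC* had at most 5 counts and the endothelial marker *CDH5* at most 7. *PECAM1*, also endothelial, had 5 to 29 counts. Of the epithelial markers, *CDH1* had at most 2 counts and *EPCAM* stood at 5.59 to 10.2 CPM. CPM are relative to the scaled total of a library, so fewer transcripts of a gene per cell and more RNA of other genes cannot be told apart.

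Type IV chain genes lie in pairs that start from a common stretch of DNA and run in opposite directions. DNA of both expressed pairs is shown, since both chains of one pair fell and only *COL4A5* of the other was called lower. The *COL4A1* and *COL4A2* starts are 126 bases apart on chromosome 13, with *COL4A1* on the minus and *COL4A2* on the plus strand. The *COL4A6* and *COL4A5* starts are 379 bases apart on chromosome X, with *COL4A6* on the minus strand, and *COL4A6* has a further start inside its gene. The whole stretch between the starts is printed for the first pair, and only the part next to *COL4A5* for the second. Sequences are from RefSeq, build GRCh38.p14, plus strand, and are intergenic. Capitals mark CCAAT on either strand (ATTGG on the opposite one) and GGGCGG, the SP1 box.
COL4A1 and COL4A2, between the starts, chr13:110307158-110307283: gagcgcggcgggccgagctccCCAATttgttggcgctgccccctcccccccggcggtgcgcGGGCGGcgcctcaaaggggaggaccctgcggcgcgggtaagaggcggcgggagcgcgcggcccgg
COL4A5, the 250 bases before its start, chrX:108439588-108439837: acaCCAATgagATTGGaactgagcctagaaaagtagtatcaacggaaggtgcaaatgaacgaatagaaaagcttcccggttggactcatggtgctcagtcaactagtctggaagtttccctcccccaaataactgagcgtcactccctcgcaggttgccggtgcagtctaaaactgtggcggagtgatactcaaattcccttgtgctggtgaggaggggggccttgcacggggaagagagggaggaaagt
The first sequence held 1 CCAAT and 1 GGGCGG. The second held 2 CCAAT and 0 GGGCGG, and the bases between it and the *COL4A6* start are not shown.

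Promoter windows of 300 bases (250 before to 50 after a start) were found for 18 of the 25 tested chains, in 22 windows. *COL14A1*, *COL1A1*, *COL2A1*, *COL5A2*, *COL6A1*, *COL8A1* and *COL9A3* had no entry. TGATGNAA, the composite element read by C/EBP and ATF factors, was in 0 of the 22 windows and in 3.62% of all 35116 promoters of the same length, both strands searched. CCAAT was in 5 windows (34.6% of all promoters), GGGCGG in 16 (45% of all), TATAAA in 4 (11.5% of all) and GAANNTTC, a pair of facing heat shock motifs, in 3 (6.77% of all). The 3 windows with GAANNTTC belonged to *COL4A5*, *COL4A6* and *COL7A1*, and those of *COL4A5* and *COL4A6* overlap and share the same match. The windows of *COL4A1* and *COL4A2* overlap as well, as do both windows of *COL5A1*. A count of windows is therefore not a count of separate promoters or sites.

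NXP800 lowered most of the collagen chains it changed. At 6 h, 13 of the 25 tested chains decreased, against 27.8% of all genes tested, and 1 increased, against 25.0% of all genes (edgeR's quasi-likelihood test, Benjamini-Hochberg adjusted p below 0.05 over all genes tested). At 24 h, 16 decreased, against 28.6% of all genes, and 2 increased, against 27.5%. The median log2 fold change of the tested chains was −0.41 at 6 h and −0.84 at 24 h, beside −0.046 and −0.0033 over all genes. The same 12 chains were called lower at both times: *COL1A1*, *COL2A1*, *COL4A1*, *COL4A2*, *COL4A5*, *COL5A2*, *COL6A1*, *COL8A1*, *COL9A2*, *COL13A1*, *COL15A1* and *COL18A1*. *COL24A1*, *COL26A1*, *COL27A1* and *COL9A3* decreased at 24 h without passing the test at 6 h. When the replicate number was taken as a block and offsets corrected for GC content and length of transcripts, 8 chains were lower (27.8% of all genes) and 3 higher (28.4%) at 6 h, and 16 were lower (30.0%) and 2 higher (30.1%) at 24 h. DMSO and NXP800 libraries that share a time and a replicate number varied together, and a block for each such pair was added after the data were seen. With this block within each time 16 chains were lower, against 33.4% of all genes, and 4 higher, against 28.9%, at 6 h. At 24 h 17 were lower, against 33.1%, and 5 higher, against 32.0%.

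**Figure D1:**
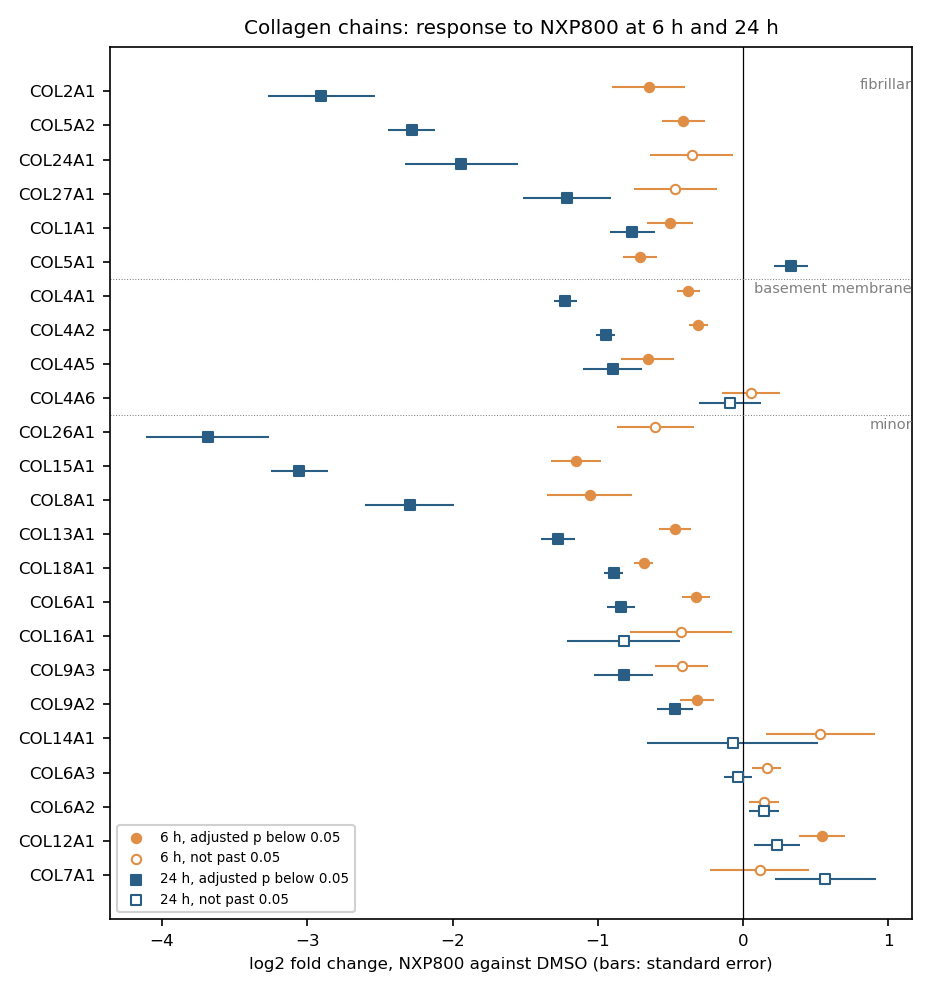
Log2 fold change (x axis) of 24 tested collagen chains (y axis, by class) for NXP800 against DMSO at 6 h (circles) and 24 h (squares), with standard errors as bars and filled symbols past an adjusted p of 0.05. Most 24 h values lie further below 0 than their 6 h values, *COL5A1* lies on both sides of 0, and *COL5A3*, with no count in any DMSO 24 h library, is left out.

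By class, 4 of 7 fibrillar chains decreased at 6 h and 0 increased, with a median log2 fold change of −0.47. At 24 h, 5 decreased and 2 increased, with a median of −1.21, or −1.58 without *COL5A3*, whose fitted value is no measure of size. Among the 4 basement membrane chains, 3 decreased and 0 increased at each time, with medians of −0.34 and −0.92. Of 14 minor chains, 6 decreased and 1 increased at 6 h (median −0.37), and 8 decreased and 0 increased at 24 h (median −0.82). Over all genes tested, 27.8% decreased and 25.0% increased at 6 h (median −0.046), and 28.6% and 27.5% at 24 h (median −0.0033). The 2 fibrillar increases at 24 h, 28.6% of the class, lay near the share of all genes. The 3 classes were not tested against each other, and their 6 h medians lay between −0.47 and −0.34. With the replicate block and the GC and length offsets the 6 h medians of the basement membrane and minor classes were both −0.15, and that of the fibrillar class was −0.36.

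Summed over a class, the CPM of all collagen chains went from 4973 ± 325.5 (SD, n = 3) to 4437 ± 113.2 at 6 h and from 5907 ± 301.9 to 4622 ± 430.8 at 24 h. Basement membrane chains summed to 948.9 ± 74.6 CPM with DMSO and 752 ± 31.2 CPM with NXP800 at 6 h. At 24 h the sums were 961.9 ± 44.6 and 468.2 ± 8.90 CPM, a log2 ratio of −1.04, the lowest ratio of the 3 classes at that time. The fibrillar sum went from 546.5 ± 71.7 to 369.6 ± 27.3 CPM at 6 h and from 791 ± 132.8 to 593.8 ± 106.6 CPM at 24 h. The minor sum, 47.8% of it *COL6A3*, went from 3478 ± 253.1 to 3316 ± 167.2 CPM at 6 h and from 4154 ± 217.3 to 3560 ± 329.2 CPM at 24 h, a log2 ratio of −0.22, or −0.44 without *COL6A3*. The sums were not tested. The fibrillar sum at 24 h followed *COL1A1*: without that chain its log2 ratio was −0.028 in place of −0.41.

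Compared per kilobase of transcript, type VI chains were the most abundant of the family. In the DMSO 24 h libraries the mean level was 199.6 CPM per kilobase for *COL6A3*, 178.2 for *COL6A1* and 131 for *COL6A2*. *COL18A1* (112.3), *COL4A2* (93.8), *COL1A1* (78.7) and *COL4A1* (53.8) followed. The next were *COL5A1* at 28.0 CPM per kilobase, *COL13A1* at 17.2 and *COL7A1* at 14, and all other chains lay below 10 CPM per kilobase.

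Of the fibrillar chains, *COL1A1*, the α1 chain of type I collagen, had 259, 202 and 216 CPM in the DMSO libraries and 175, 160 and 143 CPM with NXP800 at 6 h. At 24 h it had 357, 566 and 473 CPM with DMSO and 212, 326 and 286 CPM with NXP800. The groups did not overlap at either time. *COL1A1* fell by 0.50 ± 0.16 (SE) (log2) at 6 h (adjusted p = 0.0133, edgeR) and fell by 0.76 ± 0.16 at 24 h (adjusted p = 0.000611). The 6 h call was lost without DMSO 6 h replicate 1 (−0.40, adjusted p = 0.0695) or NXP800 6 h replicate 3 (−0.43, adjusted p = 0.0570), and with the block and the GC and length offsets (−0.29, adjusted p = 0.119). *COL1A2*, its partner chain in type I collagen, was nearly absent. The 3 libraries of a group summed to 29 *COL1A2* counts in DMSO 6 h, 8 in NXP800 6 h, 9 in DMSO 24 h and 1 in NXP800 24 h, beside 21711, 15590, 41287 and 25765 counts of *COL1A1*. *COL3A1*, which forms fibres together with type I, had at most 4 counts in any library.

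*COL5A1* and *COL5A2*, the chains of the type V collagen found inside type I fibrils, moved apart. *COL5A1* stood at 213, 159 and 200 CPM in DMSO 6 h and 126, 109 and 114 CPM in NXP800 6 h, and at 243, 252 and 214 CPM in DMSO 24 h and 275, 355 and 261 CPM in NXP800 24 h. It was lower in every NXP800 library at 6 h and higher in every one at 24 h. *COL5A1* fell by 0.71 ± 0.12 (log2) at 6 h (adjusted p = 9.1e-05, edgeR) and rose by 0.33 ± 0.12 at 24 h (adjusted p = 0.0228). The rise was not called without DMSO 24 h replicate 3 (0.26, adjusted p = 0.0997) or NXP800 24 h replicate 2 (0.21, adjusted p = 0.116). *COL5A2* stood at 80.3, 69.6 and 80.5 CPM in DMSO 6 h and 58.7, 58.0 and 56.5 CPM in NXP800 6 h, and at 44.3, 75.0 and 63.0 CPM in DMSO 24 h and 10.2, 15.5 and 11.8 CPM in NXP800 24 h. The groups were apart at both times, and far apart at 24 h. *COL5A2* fell by 0.41 ± 0.15 at 6 h (adjusted p = 0.0267) and fell by 2.28 ± 0.16 at 24 h (adjusted p = 8.21e-09). Its 6 h call was lost on leaving out any one of DMSO 6 h replicates 1 and 3 and NXP800 6 h replicates 1, 2 and 3 (adjusted p = 0.0567 to 0.0764, with log2 values of −0.42 to −0.38). *COL5A3*, the third type V chain, had 10, 5 and 10 counts in DMSO 6 h and 14, 13 and 8 counts in NXP800 6 h (adjusted p = 0.337). At 24 h it had 0 counts in all 3 DMSO libraries and 2, 3 and 3 counts with NXP800. The test called it higher (adjusted p = 0.00659), but both groups lie at or under 3 counts a library and no fold is given.

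*COL2A1*, the cartilage collagen, stood at 42.5, 24.3 and 23.9 CPM in DMSO 6 h and 25.3, 17.9 and 14.6 CPM in NXP800 6 h, with overlap. At 24 h it stood at 5.65, 12.7 and 7.18 CPM with DMSO and 1.06, 1.35 and 0.989 CPM with NXP800, without overlap. It fell by 0.65 ± 0.25 (log2) at 6 h (adjusted p = 0.0403, edgeR) and fell by 2.90 ± 0.37 at 24 h (adjusted p = 5.28e-06). The 6 h call did not hold without DMSO 6 h replicate 1 (−0.32, adjusted p = 0.299), NXP800 6 h replicate 2 (−0.60, adjusted p = 0.109) or NXP800 6 h replicate 3 (−0.48, adjusted p = 0.157), nor by library size only (−0.63, adjusted p = 0.0541), in DESeq2 (−0.63, adjusted p = 0.167) or with the block and the GC and length offsets (−0.42, adjusted p = 0.126). *COL24A1*, a scarce fibrillar chain, stood at 0.824, 0.599 and 0.851 CPM in DMSO 6 h and 0.583, 0.551 and 0.645 CPM in NXP800 6 h, and at 0.535, 0.740 and 0.481 CPM in DMSO 24 h and 0.165, 0.220 and 0.0638 CPM in NXP800 24 h. The values overlapped at 6 h (−0.35 ± 0.29, adjusted p = 0.320) and not at 24 h, where it fell by 1.94 ± 0.39 (adjusted p = 0.000475). The NXP800 24 h libraries hold only 5, 7 and 2 of its counts. *COL27A1*, a fibrillar chain of cartilage, stood at 18.5, 15.3 and 30.3 CPM in DMSO 6 h and 13.7, 12.3 and 20.5 CPM in NXP800 6 h, and at 17.2, 24.6 and 15.4 CPM in DMSO 24 h and 5.84, 12.9 and 5.97 CPM in NXP800 24 h. It was highest in replicate 3 of both 6 h arms and in replicate 2 of both 24 h arms. Its log2 fold change was −0.47 ± 0.29 at 6 h (adjusted p = 0.186), and it fell by 1.21 ± 0.30 at 24 h (adjusted p = 0.00278). It was lower with NXP800 in 6 of 6 pairs. The 6 h value passed with the block within each time (−0.45, adjusted p = 0.000322) and without a filter on low counts (−0.47, adjusted p = 7.85e-05). Without a filter the log2 value stayed at −0.47 and only the p-value moved, so that pass is not read as added support.

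**Figure D2:**
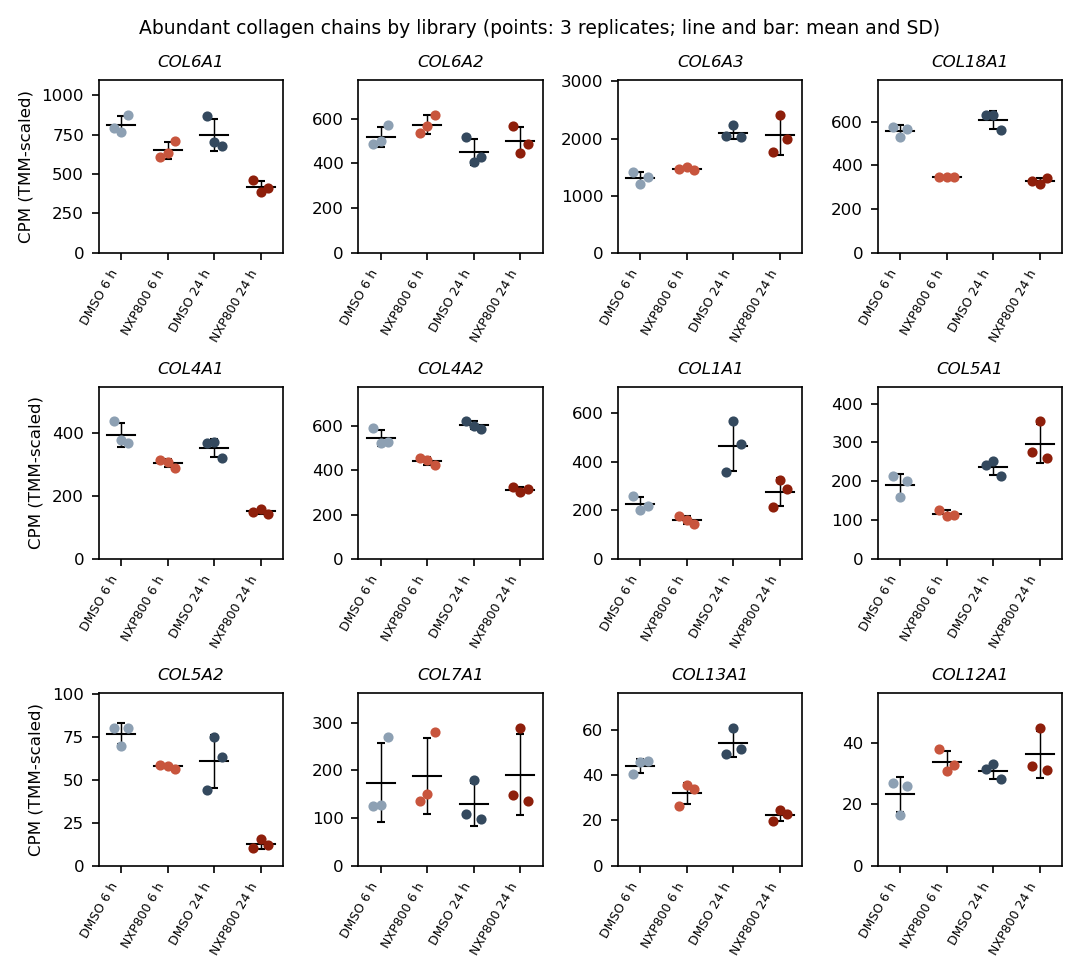
CPM (y axis, from 0) of 12 abundant collagen chains in the 12 libraries, by group (x axis), with points for the 3 replicates and line and bar for mean and SD. *COL6A1*, *COL18A1*, *COL4A1* and *COL4A2* are lower in every NXP800 library than in any DMSO library of the same time, *COL6A2* and *COL7A1* overlap, and *COL5A1* lies below DMSO at 6 h and above it at 24 h.

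The basement membrane chains *COL4A1* and *COL4A2*, which join in one heterotrimer and start on either side of the chromosome 13 stretch printed above, both fell. *COL4A1* stood at 437, 378 and 366 CPM in DMSO 6 h and 315, 306 and 289 CPM in NXP800 6 h, and at 369, 369 and 318 CPM in DMSO 24 h and 150, 159 and 144 CPM in NXP800 24 h. *COL4A2* stood at 590, 523 and 529 CPM in DMSO 6 h and 458, 447 and 423 CPM in NXP800 6 h, and at 624, 600 and 589 CPM in DMSO 24 h and 324, 303 and 314 CPM in NXP800 24 h. For both chains all NXP800 libraries lay below all DMSO libraries of the same time. *COL4A1* fell by 0.38 ± 0.08 (log2) at 6 h (adjusted p = 0.000761, edgeR) and fell by 1.22 ± 0.08 at 24 h (adjusted p = 3.12e-09). *COL4A2* fell by 0.31 ± 0.06 at 6 h (adjusted p = 0.000839) and fell by 0.95 ± 0.07 at 24 h (adjusted p = 5.73e-09), although its 6 h call was lost with the block and the GC and length offsets (−0.09, adjusted p = 0.140).

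The X-linked chains of type IV, which occur together in a second kind of network, were scarce and did not move together. *COL4A5* stood at 5.16, 3.97 and 5.65 CPM in DMSO 6 h and 3.47, 2.88 and 3.04 CPM in NXP800 6 h, and at 3.28, 4.00 and 2.47 CPM in DMSO 24 h and 1.72, 1.54 and 1.98 CPM in NXP800 24 h. The groups were apart at both times, and it fell by 0.66 ± 0.18 at 6 h (adjusted p = 0.00603, edgeR) and fell by 0.90 ± 0.20 at 24 h (adjusted p = 0.0012). *COL4A6*, which starts on the other side of the shared chromosome X stretch, ranged from 2.49 to 3.35 CPM at 6 h and from 1.53 to 2.71 CPM at 24 h with overlap of the arms. Its log2 fold changes were 0.06 ± 0.20 (adjusted p = 0.832) and −0.09 ± 0.21 (adjusted p = 0.745). The response of *COL4A5* was not tested against that of *COL4A6*. *COL4A3* and *COL4A4*, the remaining chains of the type, had at most 1 and 4 counts in a library.

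The beaded filaments of type VI are built from an α1, an α2 and an α3 chain, and only the gene for α1 was called in the model without pairing. *COL6A1* stood at 792, 766 and 878 CPM in DMSO 6 h and 605, 636 and 707 CPM in NXP800 6 h, and at 867, 703 and 676 CPM in DMSO 24 h and 462, 385 and 408 CPM in NXP800 24 h. All NXP800 libraries were below all DMSO libraries of their time. *COL6A1* fell by 0.32 ± 0.10 (log2) at 6 h (adjusted p = 0.0108, edgeR) and fell by 0.84 ± 0.10 at 24 h (adjusted p = 2.34e-06). The 6 h call did not hold without DMSO 6 h replicate 3 (−0.26, adjusted p = 0.052) or NXP800 6 h replicate 1 (−0.27, adjusted p = 0.0576), nor with the block and the GC and length offsets (−0.09, adjusted p = 0.391). *COL6A2*, a neighbour of *COL6A1* on chromosome 21, stood at 487, 498 and 570 CPM in DMSO 6 h and 534, 565 and 618 CPM in NXP800 6 h, and at 519, 408 and 427 CPM in DMSO 24 h and 569, 446 and 484 CPM in NXP800 24 h. The arms overlapped, with log2 fold changes of 0.14 ± 0.10 (adjusted p = 0.261) and 0.15 ± 0.10 (adjusted p = 0.238). Without DMSO 24 h replicate 1 the 24 h value was 0.26 and past the threshold (adjusted p = 0.0448). *COL6A3* stood at 1404, 1200 and 1329 CPM in DMSO 6 h and 1457, 1493 and 1454 CPM in NXP800 6 h, and at 2046, 2230 and 2031 CPM in DMSO 24 h and 1755, 2421 and 1983 CPM in NXP800 24 h. The NXP800 libraries were all higher at 6 h and overlapped with DMSO at 24 h, with log2 fold changes of 0.16 ± 0.10 (adjusted p = 0.179) and −0.03 ± 0.10 (adjusted p = 0.785). With the block and the GC and length offsets *COL6A2* (0.37, adjusted p = 0.00562) and *COL6A3* (0.27, adjusted p = 0.0133) passed the threshold as increased at 6 h. *COL6A3* did so also in the 6 libraries of the time (0.20, adjusted p = 0.0215) and with the block within each time (0.17, adjusted p = 0.0358). *COL6A2* was higher with NXP800 in 6 of 6 pairs, and with the block within each time both its values passed, 0.14 at 6 h (adjusted p = 0.0125) and 0.15 in the later libraries (adjusted p = 0.0101).

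Ratios of partner chains taken within each library show the same divergence without any scaling between libraries. The *COL6A1* to *COL6A2* ratio, in counts per kilobase, was 1.33, 1.26 and 1.26 in DMSO 6 h and 0.929, 0.922 and 0.937 in NXP800 6 h. At 24 h it was 1.37, 1.42 and 1.30 with DMSO and 0.666, 0.708 and 0.690 with NXP800. The ratio was lower in every NXP800 library than in any DMSO library of its time. Whether it passed 1 at 6 h depends on the transcript lengths. Without division by length, *COL6A1* had more counts than *COL6A2* in each NXP800 6 h library (19700 against 17374, 20770 against 18470 and 23014 against 20140). The *COL6A3* to *COL6A1* ratio went from 0.646 ± 0.054 (SD, n = 3) to 0.907 ± 0.075 at 6 h and from 1.14 ± 0.17 to 1.99 ± 0.50 at 24 h, and the arms did not overlap. *COL4A1* to *COL4A2* stood at 0.708 ± 0.024 and 0.676 ± 0.0024 at 6 h and at 0.574 ± 0.038 and 0.474 ± 0.038 at 24 h. That ratio too was lower in every NXP800 library than in any DMSO library of the same time. The *COL5A1* to *COL5A2* ratio was 4.43, 2.71 and 2.75 in DMSO 24 h and 21.8, 18.6 and 17.9 in NXP800 24 h, after 2.00 ± 0.15 and 1.63 ± 0.11 at 6 h. The ratios were not tested.

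**Figure D3:**
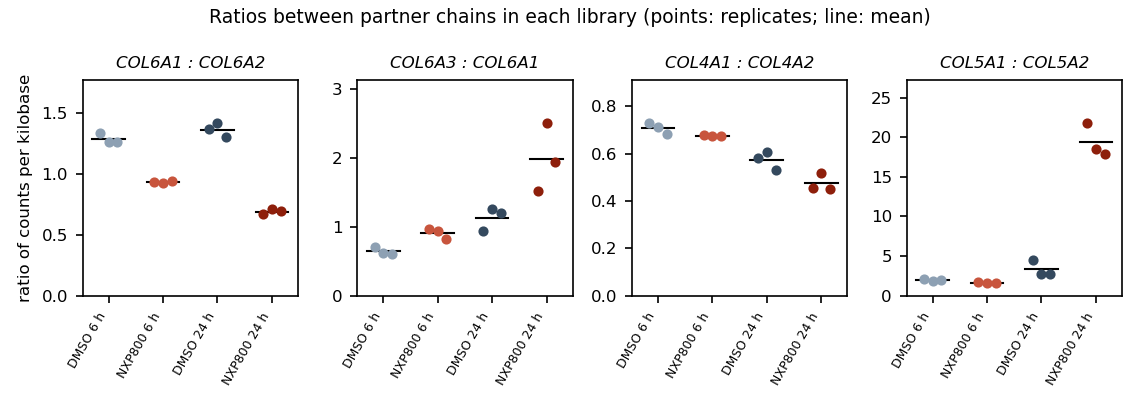
Ratio of counts per kilobase between partner chains (y axis, from 0) in each of the 12 libraries, by group (x axis), with points for replicates and lines for means. *COL6A1* to *COL6A2* is lower in all 6 NXP800 libraries than in any DMSO library of the same time, and *COL5A1* to *COL5A2* reaches 17.9 to 21.8 in NXP800 24 h.

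The multiplexins, basement membrane-associated collagens whose ends can be released as antiangiogenic fragments, both fell at both times. *COL15A1* stood at 7.16, 8.64 and 6.41 CPM in DMSO 6 h and 3.41, 4.01 and 2.58 CPM in NXP800 6 h, and at 8.46, 10.1 and 10.4 CPM in DMSO 24 h and 1.45, 1.03 and 0.989 CPM in NXP800 24 h. The arms were apart at both times, and *COL15A1* fell by 1.15 ± 0.17 (log2) at 6 h (adjusted p = 3.31e-05, edgeR) and fell by 3.06 ± 0.20 at 24 h (adjusted p = 2.66e-09). *COL18A1*, the source of endostatin, stood at 576, 529 and 568 CPM in DMSO 6 h and 348, 348 and 345 CPM in NXP800 6 h, and at 628, 632 and 561 CPM in DMSO 24 h and 327, 312 and 344 CPM in NXP800 24 h. It was close to the same level in all 6 NXP800 libraries and fell by 0.69 ± 0.07 at 6 h (adjusted p = 3.27e-07) and fell by 0.89 ± 0.07 at 24 h (adjusted p = 1.24e-08). *SLC19A1* on the opposite strand overlaps 18.5% of the exonic bases of *COL18A1*, and the strand setting of the counting is not given in the sources used here, so its values are uncertain to that extent. For the other tested chains the opposite-strand overlap was at most 3.98%, in *COL5A3*.

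*COL13A1*, a transmembrane collagen of cell adhesion sites, stood at 40.4, 45.8 and 46.3 CPM in DMSO 6 h and 26.5, 35.5 and 33.8 CPM in NXP800 6 h, and at 49.5, 61.2 and 51.9 CPM in DMSO 24 h and 19.7, 24.7 and 22.9 CPM in NXP800 24 h. The arms were apart, and it fell by 0.47 ± 0.11 (log2) at 6 h (adjusted p = 0.00229, edgeR) and fell by 1.27 ± 0.11 at 24 h (adjusted p = 1.24e-07). *COL8A1*, a short chain that forms hexagonal networks, stood at 1.36, 1.42 and 1.94 CPM in DMSO 6 h and 0.553, 0.734 and 0.983 CPM in NXP800 6 h, and at 1.74, 2.42 and 2.81 CPM in DMSO 24 h and 0.297, 0.408 and 0.702 CPM in NXP800 24 h. All NXP800 libraries were lower, and it fell by 1.06 ± 0.29 at 6 h (adjusted p = 0.00612) and fell by 2.30 ± 0.31 at 24 h (adjusted p = 9.62e-06). *COL26A1* stood at 6.72, 6.87 and 3.95 CPM in DMSO 6 h and 4.61, 4.16 and 2.76 CPM in NXP800 6 h, and at 2.54, 4.44 and 2.23 CPM in DMSO 24 h and 0.0991, 0.314 and 0.287 CPM in NXP800 24 h. Its arms overlapped at 6 h, its log2 fold change being −0.60 ± 0.26 (adjusted p = 0.0654), and at 24 h it fell by 3.69 ± 0.42 (adjusted p = 1.75e-06), from 76, 132 and 65 counts to 3, 10 and 9. The 6 h change passed with the replicate block (−0.59, adjusted p = 0.0186) in the form shared by both times, with the block within each time (−0.60, adjusted p = 0.000436), without a filter (adjusted p = 0.00165), in the 6 libraries of the time (−0.57, adjusted p = 0.0473) and without DMSO 6 h replicate 3 (−0.82, adjusted p = 0.0149).

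**Figure D4:**
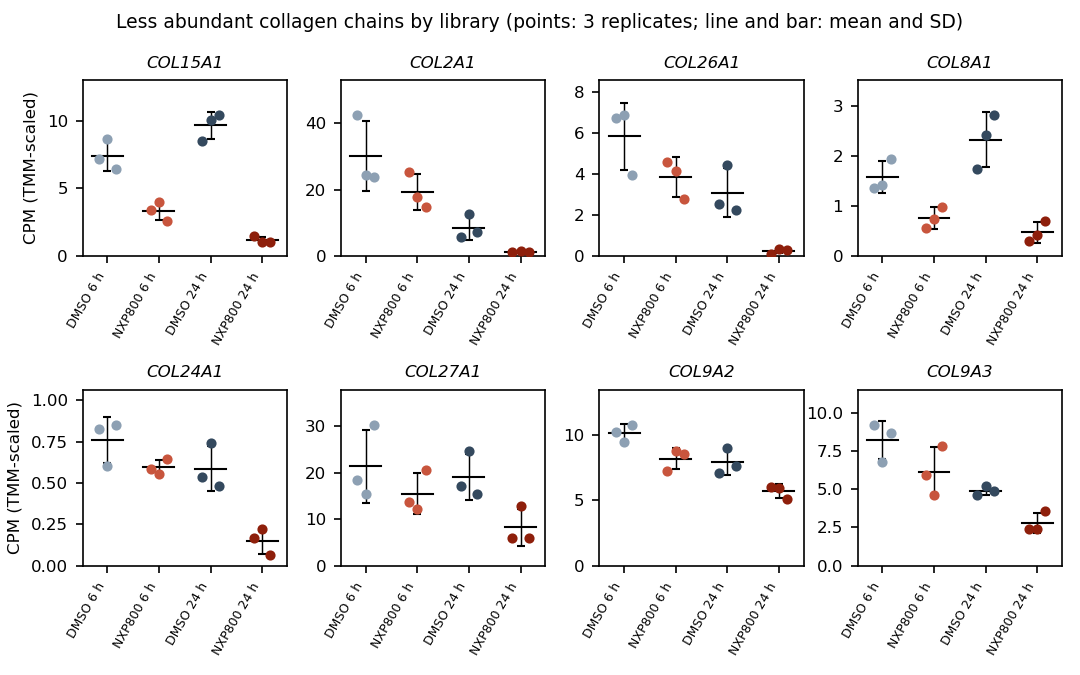
CPM (y axis, from 0) of 8 less abundant collagen chains in the 12 libraries, by group (x axis), with points for the 3 replicates and line and bar for mean and SD. *COL15A1* falls to 0.989 to 1.45 CPM in NXP800 24 h from 8.46 to 10.4 CPM in DMSO 24 h. *COL2A1* and *COL26A1* are also lower in DMSO 24 h than in DMSO 6 h, which cannot be told apart from a difference between the sets of libraries.

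Of the fibril-associated collagens, *COL12A1*, found on the surface of type I fibrils, was the 1 chain called higher at 6 h in the model without pairing. *COL12A1* stood at 26.9, 16.6 and 26.2 CPM in DMSO 6 h and 38, 30.8 and 32.8 CPM in NXP800 6 h, and at 31.4, 33.2 and 28.2 CPM in DMSO 24 h and 32.6, 45.1 and 31.3 CPM in NXP800 24 h. All NXP800 libraries were higher at 6 h, where it rose by 0.54 ± 0.16 in log2 (adjusted p = 0.00928, edgeR), or by 0.35 without DMSO 6 h replicate 2 (adjusted p = 0.0494). The arms overlapped at 24 h (0.23 ± 0.16, adjusted p = 0.225), although the value passed with the block within each time (0.22, adjusted p = 0.0341) and without a filter (0.25, adjusted p = 0.0212). *COL9A2* and *COL9A3*, chains of the cartilage type IX, were at most 10.8 CPM. *COL9A2* fell by 0.31 ± 0.12 at 6 h (adjusted p = 0.0334) and fell by 0.47 ± 0.12 at 24 h (adjusted p = 0.00404). Its 6 h call was lost without DMSO 6 h replicate 1 (−0.31, adjusted p = 0.0745), DMSO 6 h replicate 3 (−0.27, adjusted p = 0.109) or NXP800 6 h replicate 1 (−0.23, adjusted p = 0.152), and with the block and the GC and length offsets (−0.11, adjusted p = 0.437). It was also lost by library size only (adjusted p = 0.0540), without a filter (adjusted p = 0.0517) and in DESeq2 (adjusted p = 0.0556).

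*COL9A3* changed by −0.42 ± 0.18 in log2 terms at 6 h (adjusted p = 0.0607, edgeR) and fell by 0.82 ± 0.20 at 24 h (adjusted p = 0.00262). The 6 h change passed with the replicate block (−0.44, adjusted p = 0.0264), with the block within each time (−0.43, adjusted p = 0.00404), without a filter (adjusted p = 0.0118), without DMSO 6 h replicate 2 (−0.54, adjusted p = 0.0321) and without NXP800 6 h replicate 3 (−0.64, adjusted p = 0.00941). *COL14A1* had 6 to 14 counts in the 6 h libraries and 1 to 4 in the 24 h libraries, too few to show a change (adjusted p = 0.248 and 0.932). *COL16A1* ranged from 0.594 to 3.31 CPM and its arms overlapped at both times, with log2 fold changes of −0.43 ± 0.35 (adjusted p = 0.323) and −0.82 ± 0.39 (adjusted p = 0.0841). Without DMSO 24 h replicate 3 (−1.09, adjusted p = 0.0289) or NXP800 24 h replicate 2 (−1.25, adjusted p = 0.0257) the 24 h value passed, as it did with the block within each time (−0.83, adjusted p = 0.00410) and without a filter (adjusted p = 0.00434).

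*COL7A1*, the chain of anchoring fibrils, differed more between replicates of an arm than between the arms, but in 1 direction within pairs. It stood at 125, 127 and 270 CPM in DMSO 6 h and 135, 150 and 281 CPM in NXP800 6 h, and at 108, 180 and 97.7 CPM in DMSO 24 h and 148, 290 and 135 CPM in NXP800 24 h. Like *COL27A1*, it was highest in replicate 3 of both 6 h arms and replicate 2 of both 24 h arms. The log2 fold changes were 0.12 ± 0.34 at 6 h (adjusted p = 0.796, edgeR) and 0.57 ± 0.34 at 24 h (adjusted p = 0.173). The arms overlapped, and *COL7A1* was higher with NXP800 in all 6 pairs of libraries with the same replicate number and time. A block of the replicate number shared by both times gave no call (adjusted p = 0.776 and 0.150). With the block within each time the 6 h value of *COL7A1* was 0.14 (adjusted p = 0.0382) and the 24 h value 0.54 (adjusted p = 1.26e-07), both past the threshold, as was the difference between the times (0.40, adjusted p = 0.000479). Without a filter on low counts the 24 h value (0.59, adjusted p = 2.52e-13) and the difference (adjusted p = 0.000205) passed too. The 24 h log2 value hardly moved from 0.57, yet its adjusted p fell from 0.173 although the arms overlapped. A pass without a filter is therefore not read as added support for any gene.

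The other 19 chains held too few counts to test. *COL9A1* and *COL22A1* had 0 counts in every library. A single library at 0, taken alone, allows an expected count of up to about 3. *COL4A3*, *COL6A6*, *COL10A1*, *COL11A1* and *COL28A1* had at most 1 count in a library, *COL6A5* and *COL21A1* at most 3, *COL3A1*, *COL4A4* and *COL20A1* at most 4 and *COL19A1* at most 5. *COL25A1* had 3 to 10 counts, *COL23A1* 4 to 11, *COL8A2* 1 to 11, *COL1A2* 0 to 12, *COL17A1* 1 to 16 and *COL11A2* 5 to 21. These chains did not enter the test, so no call is given for them. At these low counts the NXP800 libraries lay below the DMSO libraries without overlap for *COL1A2* and *COL6A5* at 6 h. The same held for *COL8A2* at both times. For *COL11A2* at 24 h it held in scaled CPM only, since its counts (10, 8 and 9 with DMSO, 7, 8 and 7 with NXP800) met at 8. The arms of the other untested chains overlapped. The share of all genes with arms apart was not counted, so these separations are not read as falls. Of the tested chains 5 fell under the count filter in at least 1 library: *COL5A3*, *COL8A1*, *COL14A1*, *COL24A1* and *COL26A1*.

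The response at 24 h was set against the response at 6 h in the same model. The difference was called negative for 10 of 25 chains, against 13.8% of all genes tested, and called positive for 2, against 12%. With the block within each time it was called negative for 13, against 20.9% of all genes, and positive for 3, against 18.4%. The largest negative differences on the log2 scale were those of *COL26A1* (−3.08 ± 0.52, adjusted p = 0.00044, edgeR) and *COL2A1* (−2.25 ± 0.45, adjusted p = 0.00183). *COL15A1* (−1.91 ± 0.26, adjusted p = 8.29e-05) and *COL5A2* (−1.87 ± 0.22, adjusted p = 1.67e-05) followed. *COL24A1* (−1.59 ± 0.49, adjusted p = 0.0258) and *COL8A1* (−1.24 ± 0.43, adjusted p = 0.0454) were less certain. The call for *COL24A1* was lost without DMSO 6 h replicate 2, NXP800 6 h replicate 3, DMSO 24 h replicate 2 or NXP800 24 h replicate 3 (−1.52 to −1.23, adjusted p = 0.0522 to 0.0802) and in DESeq2 (−1.62, adjusted p = 0.0649). That for *COL8A1* was lost without any one of DMSO 6 h replicates 1 and 2, NXP800 6 h replicates 2 and 3, DMSO 24 h replicates 2 and 3 and NXP800 24 h replicates 1 and 2 (−1.26 to −1.004, adjusted p = 0.0746 to 0.132), and by library size only (−1.16, adjusted p = 0.0645). *COL4A1* (−0.85 ± 0.11, adjusted p = 4.99e-05), *COL13A1* (−0.81 ± 0.16, adjusted p = 0.00162), *COL4A2* (−0.64 ± 0.09, adjusted p = 0.000111) and *COL6A1* (−0.52 ± 0.14, adjusted p = 0.0119) completed the list.

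*COL5A1* had a positive difference of 1.04 ± 0.16 (adjusted p = 0.000258, edgeR), since it changed sign between the times. *COL5A3* was called positive (adjusted p = 0.0364) on the few counts given above, and its fitted size is not read here. Its call was lost without a filter (adjusted p = 0.0690), with the block and the GC and length offsets (adjusted p = 0.0527) and on leaving out any library but DMSO 6 h replicate 2, NXP800 6 h replicate 1 or NXP800 24 h replicate 1 (adjusted p = 0.0516 to 0.0798). For *COL1A1* (−0.26 ± 0.22, adjusted p = 0.428), *COL4A5* (−0.24 ± 0.27, adjusted p = 0.555), *COL9A2* (−0.15 ± 0.17, adjusted p = 0.549) and *COL18A1* (−0.21 ± 0.09, adjusted p = 0.117), which were called lower at both times, the difference did not pass. With the block and the GC and length offsets that of *COL18A1* did (−0.40, adjusted p = 0.00173). With the block within each time those of *COL1A1* (−0.26, adjusted p = 0.00976), *COL12A1* (−0.34, adjusted p = 0.0386) and *COL27A1* (−0.80, adjusted p = 0.000156) passed. That of *COL27A1* passed also without a filter (adjusted p = 5.47e-05) and without NXP800 24 h replicate 2 (−1.22, adjusted p = 0.0268), and that of *COL6A3* without the same library (−0.34, adjusted p = 0.0339). The times differ in their share of reads on no gene, so that a difference between DMSO libraries of the 2 times, as for *COL2A1* and *COL26A1*, cannot be told apart from one between the sets of libraries.

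Genes that make, export, process, crosslink or bind collagen were taken from a list of 46, of which 43 were tested. At 6 h 23 decreased, against 27.8% of all genes tested, and 6 increased, against 25.0%. At 24 h 23 decreased, against 28.6% of all genes, and 10 increased, against 27.5%. The median log2 fold changes were −0.32 and −0.25, beside −0.046 and −0.0033 over all genes. The decreases were most frequent among genes of intracellular modification and folding, 14 of 18 at each time with 1 increased. Of 6 genes listed under export 1 decreased and 2 increased at 6 h and 1 decreased and 4 increased at 24 h. That group includes the transcription factor *CREB3L1*, which is not part of the export machinery and was called higher at 24 h only. Of 6 genes of propeptide removal 3 decreased and 0 increased at 6 h and 2 decreased and 2 increased at 24 h. Of 5 crosslinking genes 2 decreased at each time. Of 8 receptors 3 decreased and 3 increased at 6 h and 4 decreased and 3 increased at 24 h.

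Among the enzymes and chaperones of the ER, *SERPINH1*, the collagen chaperone HSP47, stood at 73.9, 72.0 and 70.8 CPM in DMSO 6 h and 41.2, 43.0 and 44.5 CPM in NXP800 6 h, and at 85.8, 82.3 and 88.0 CPM in DMSO 24 h and 83.3, 73.2 and 91.1 CPM in NXP800 24 h. The arms were apart at 6 h and overlapped at 24 h. It fell by 0.75 ± 0.07 (log2) at 6 h (adjusted p = 3.76e-07, edgeR) and was at −0.05 ± 0.07 at 24 h (adjusted p = 0.581), a difference of 0.70 ± 0.10 (adjusted p = 0.000123). *P3H4*, which acts with lysyl hydroxylase 1, went from 26.3, 23.5 and 24.3 to 11.8, 8.81 and 12.3 CPM at 6 h and fell by 1.17 ± 0.13 (adjusted p = 1.25e-06), and was at 0.05 ± 0.12 at 24 h (adjusted p = 0.730). *P3H3* fell by 1.33 ± 0.17 at 6 h (adjusted p = 5.35e-06) and fell by 1.00 ± 0.16 at 24 h (adjusted p = 4.79e-05).

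Of the prolyl 4-hydroxylase subunits, *P4HA1* fell by 0.42 ± 0.16 at 6 h (adjusted p = 0.0315, edgeR) and fell by 0.57 ± 0.16 at 24 h (adjusted p = 0.00506), the 6 h call being lost without DMSO 6 h replicate 1 or 2 or NXP800 6 h replicate 1 or 3 (−0.45 to −0.30, adjusted p = 0.0541 to 0.142). *P4HB* fell by 0.40 ± 0.07 at 6 h (adjusted p = 0.000196) and fell by 0.20 ± 0.07 at 24 h (adjusted p = 0.0287), the 24 h call being lost without DMSO 24 h replicate 3 (−0.15, adjusted p = 0.131) or NXP800 24 h replicate 2 (−0.12, adjusted p = 0.160). It was also lost by library size only (−0.11, adjusted p = 0.125), without a filter (−0.18, adjusted p = 0.0650), in the 6 libraries of the time (−0.18, adjusted p = 0.0868) and with the block and the GC and length offsets (−0.13, adjusted p = 0.142). *PLOD2*, a lysyl hydroxylase, rose by 0.27 ± 0.10 at 6 h (adjusted p = 0.0233) and fell by 0.25 ± 0.10 at 24 h (adjusted p = 0.0359). Its 6 h call was lost without DMSO 6 h replicate 3 or NXP800 6 h replicate 1 or 2 (0.19 to 0.25, adjusted p = 0.0764 to 0.118), and with the block and the GC and length offsets (0.14, adjusted p = 0.222). Its 24 h call was lost without DMSO 24 h replicate 2 or 3 or NXP800 24 h replicate 1 or 2 (−0.25 to −0.16, adjusted p = 0.0731 to 0.189), and by library size only (−0.16, adjusted p = 0.170).

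Of the export genes, *MIA2*, a cargo receptor family member of ER exit sites, stood at 30.5, 30.6 and 29.2 CPM in DMSO 6 h and 80.6, 81.6 and 80.2 CPM in NXP800 6 h, and at 27.8, 25.5 and 28.1 CPM in DMSO 24 h and 63.5, 64.0 and 60.1 CPM in NXP800 24 h. It rose in every NXP800 library, by 1.42 ± 0.06 (adjusted p = 7.83e-11, edgeR) and 1.20 ± 0.06 (adjusted p = 2.98e-10). *CREB3L1* was listed under export but is an ER-bound transcription factor that drives collagen genes in bone. It stood at 4.45, 4.10 and 3.40 CPM in DMSO 24 h and 10, 7.18 and 9.25 CPM in NXP800 24 h and rose by 1.15 ± 0.16 (adjusted p = 1.17e-05). At 6 h it was at 0.35 ± 0.16 (adjusted p = 0.0801), which passed with the replicate block shared by both times (adjusted p = 0.0378), with that within each time (0.36, adjusted p = 0.0232), with the block and the GC and length offsets (0.55, adjusted p = 0.00256), in the 6 libraries of the time (0.39, adjusted p = 0.0413) and without DMSO 6 h replicate 1 (0.48, adjusted p = 0.0403).

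Outside the cell, *PCOLCE*, which speeds removal of the C-propeptide of fibrillar collagens, went from 167, 210 and 195 CPM to 60, 48.2 and 61.5 CPM at 24 h and fell by 1.75 ± 0.10 in log2 (adjusted p = 7.86e-10, edgeR). At 6 h it fell by 0.30 ± 0.10 (adjusted p = 0.0146), a call lost without DMSO 6 h replicate 2 (−0.27, adjusted p = 0.0557) or NXP800 6 h replicate 3 (−0.23, adjusted p = 0.0798), and with the block and the GC and length offsets (−0.16, adjusted p = 0.177). *TLL2*, a propeptidase, was at most 0.627 CPM and rose by 1.20 ± 0.40 at 24 h (adjusted p = 0.0187), a call lost without DMSO 24 h replicate 3 (1.04, adjusted p = 0.0724) or NXP800 24 h replicate 1 (0.80, adjusted p = 0.146), and in DESeq2 (1.23, adjusted p = 0.101). The crosslinking enzyme *LOXL1* went from 22.8, 28.7 and 30.7 to 7.64, 9.27 and 11.7 CPM at 6 h and from 52.8, 66.6 and 41.6 to 22.0, 20.9 and 17.7 CPM at 24 h. It fell by 1.52 ± 0.17 at 6 h (adjusted p = 2.03e-06) and fell by 1.41 ± 0.16 at 24 h (adjusted p = 1.97e-06). *LOX* was at −0.15 ± 0.11 (adjusted p = 0.302) and −0.11 ± 0.12 (adjusted p = 0.425). Genes on the opposite strand overlap 16.8% of the exonic bases of *PCOLCE*, 9.21% of those of *LOXL1* and 7.38% of those of *MIA2*. As for *COL18A1*, their values are uncertain to that extent. For the other genes named from this list the overlap was at most 4.75%, in *P4HB*.

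The collagen receptors differed in direction. *DDR2*, a tyrosine kinase activated by fibrillar collagen, stood at 24.1, 25.9 and 22.8 CPM in DMSO 6 h and 75.5, 89.8 and 77.4 CPM in NXP800 6 h, and at 36.9, 29.6 and 28.9 CPM in DMSO 24 h and 61.5, 72.9 and 71.8 CPM in NXP800 24 h. It rose by 1.74 ± 0.10 in log2 (adjusted p = 1.55e-09, edgeR) at 6 h and rose by 1.11 ± 0.10 at 24 h (adjusted p = 1.21e-07). *ITGA2*, a collagen-binding integrin subunit, rose by 0.78 ± 0.10 at 6 h (adjusted p = 4.64e-06) and was at −0.01 ± 0.10 at 24 h (adjusted p = 0.911). *ITGA10*, the integrin subunit of cartilage cells, was at −0.45 ± 0.22 at 6 h (adjusted p = 0.103), passing with the replicate block shared by both times (adjusted p = 0.0318), with that within each time (−0.44, adjusted p = 0.00120), without a filter (adjusted p = 0.000636), in the 6 libraries of the time (−0.42, adjusted p = 0.0351) and without DMSO 6 h replicate 1 (−0.61, adjusted p = 0.041). At 24 h it went from 6.52, 14.9 and 9.75 to 2.11, 2.82 and 1.72 CPM and fell by 2.22 ± 0.27 (adjusted p = 3.72e-06).

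**Figure D5:**
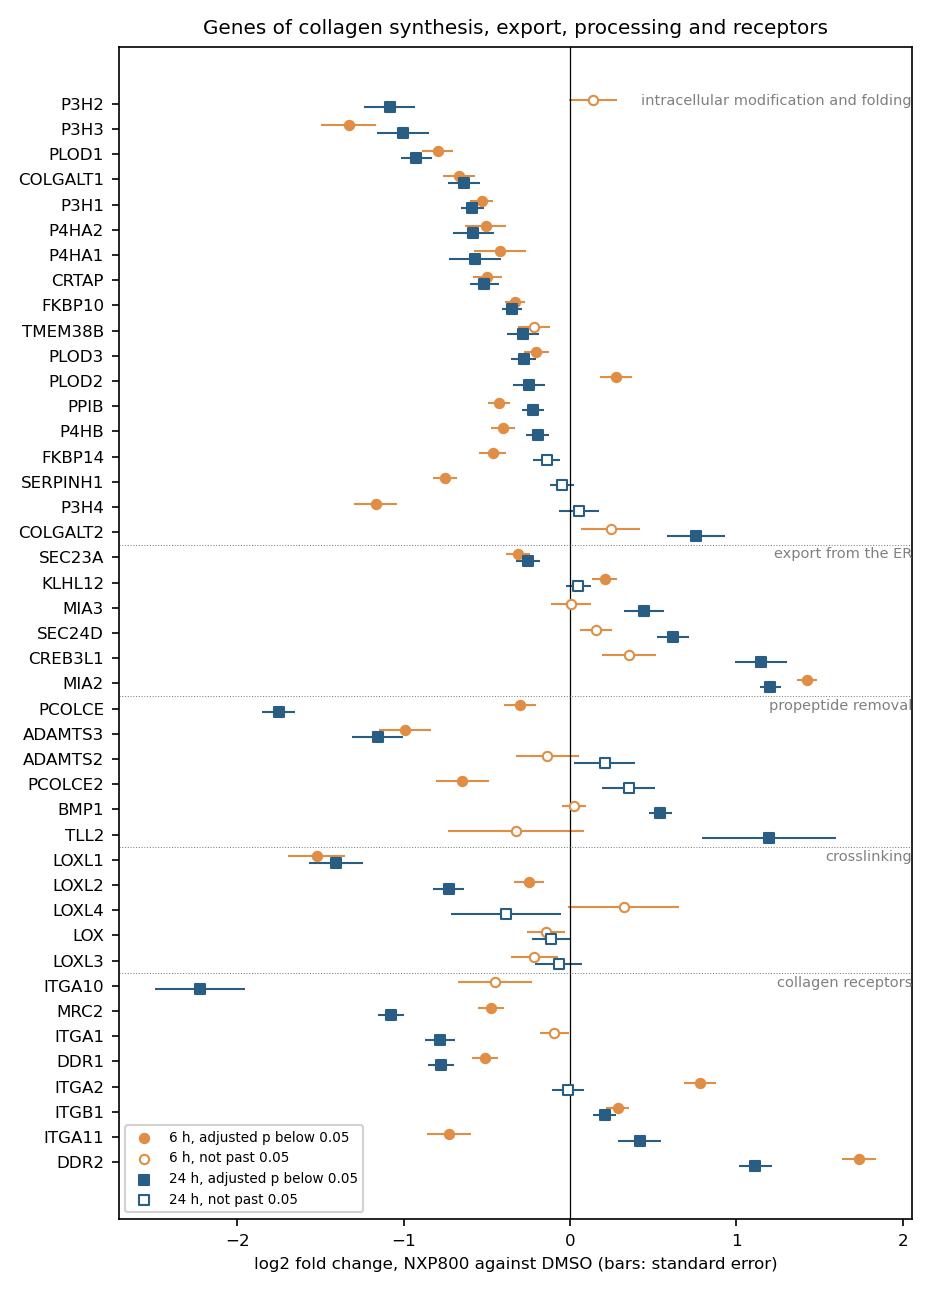
Log2 fold change (x axis) of the 43 tested genes of collagen synthesis, export, processing, crosslinking and binding (y axis, by role) for NXP800 against DMSO at 6 h (circles) and 24 h (squares), with standard errors as bars and filled symbols past an adjusted p of 0.05. Most genes of modification and folding lie below 0 at both times, and *SERPINH1* and *P3H4* lie below 0 at 6 h and near 0 at 24 h. Of the genes listed under export, 4 of 6 are filled above 0 at 24 h, the transcription factor *CREB3L1* among them.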

How the data were processed

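Each deposited file holds unscaled counts for the gene symbols of 1 library. The authors trimmed paired reads of 100 bases with fastp (0.20.1), aligned them with STAR (2.7.5a) to hg38 and counted them with HTSeq (0.12.4), per the labels and methods. The strand setting and the handling of overlapping genes are not given in the sources used here.

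The tests used edgeR (4.0.16) under R (4.3.3): filterByExpr (minimum count 10), TMM scaling and the quasi-likelihood test in 1 model of the 4 groups (8 residual degrees of freedom), with Benjamini-Hochberg adjustment over 15979 genes. Contrasts were NXP800 against DMSO at 6 h and 24 h and the difference of these responses. CPM use TMM-scaled totals, levels per kilobase use MANE transcript lengths, and SE is the log2 fold change divided by the root of the F statistic. Counter entries without a gene name were not part of the totals. Of the reads, ambiguous ones were 2.10 to 2.43% and those aligned to several places 1.86 to 3.37%. Replicates differed by more than counting noise (chi-square per degree of freedom 7.36 to 26.4), so none was a duplicate. Depth, 30810614 to 31947656 counts, limits only the scarce chains, and intervals from counting would cover counting error only.

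Replicate numbers in the labels pair the libraries: after removal of group means, DMSO and NXP800 libraries of 1 number and time correlated across genes with r of 0.160 to 0.329, those of different numbers with r of −0.268 to 0.058. Genes are not independent replicates, and the labels do not say what a number marks.

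Every tested chain is named. Values in each library are given for chains with a mean of at least 10 CPM and for the 5 largest called rises and falls at a time. Of the biosynthesis list the 3 largest called changes each way at a time were named, with *SERPINH1*, *P4HA1*, *P4HB*, *PLOD2*, *LOX* and *CREB3L1*. The members, lists and motifs were chosen with earlier results of these data known. Alternatives were DESeq2 (1.42.0) and its size factors, library size only, no filter, at least 10 counts in every library, the replicate block shared by both times, that block with GC and length offsets (mgcv 1.9.3, 14631 genes or 91.6%), the 6 libraries of a time, an adjusted p below 0.01, sums without the most abundant chain and each library left out. The medians without *COL5A3*, and a replicate block within each time (4 residual degrees of freedom), which fits the pairs found, were added after seeing the data. The procedure was also run on simulated counts with a common dispersion for all genes and no shared variation within pairs. That run does not show how the tests behave with the pairs and the uneven spread found in these libraries.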

Additional observations from a re-analysis of the deposited data

Results flagged for a closer look

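The responses of 12 chains at 24 h and 6 h differed by a test of the difference itself (edgeR, adjusted p below 0.05), given as log2 response at 24 h minus that at 6 h. The values were −3.08 for *COL26A1*, −2.25 for *COL2A1*, −1.91 for *COL15A1*, −1.87 for *COL5A2* and −1.59 for *COL24A1*. They were −1.24 for *COL8A1*, −0.85 for *COL4A1*, −0.81 for *COL13A1*, −0.64 for *COL4A2* and −0.52 for *COL6A1*. *COL5A1* stood at 1.04, with a fall at 6 h and a rise at 24 h. The value of *COL5A3*, 4.03, depends on the prior count of the fit because its DMSO 24 h libraries hold 0 counts, and it is no measure of size. No sample was set apart as an outlier, since groups of 3 are too small for that test.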

How the results depend on the processing

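The 13 chains lower at 6 h became 8 with the replicate block and GC and length offsets and 8 at an adjusted p below 0.01 (9 to 15 with 1 library left out), and the 1 higher became 3 with those offsets, 4 with the block within each time and 2 in the 6 libraries of the time (1 to 1). The 16 lower at 24 h were 16 to 18 with 1 library left out. The 2 higher at 24 h became 4 without a filter, 5 with the block within each time and 1 with at least 10 counts in every library, in the 6 libraries of the time, or at an adjusted p below 0.01 (1 to 3, being 1 without DMSO 24 h replicate 3 or NXP800 24 h replicate 2). The 10 negative differences were 8 to 11 and the 2 positive ones 1 to 2 with 1 library left out. The positive ones were 1 with at least 10 counts in every library, with the block and offsets, with DESeq2 and at an adjusted p below 0.01. With the block and offsets 27.8% of all genes were lower at 6 h, so the 8 lower chains of 25 were near that share. The 3 higher chains stood beside 28.4% of all genes. Apart from the main setting, shares of all genes were counted only for these offsets and for the block within each time. Without a filter some adjusted p-values were far smaller at almost the same log2 value, as for *COL7A1* at 24 h. Calls gained without a filter are therefore not read as added support.

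The replicate block alone called 15 chains lower at 6 h in place of 13, by adding *COL26A1* and *COL9A3*, and among the genes named it changed no other call but those of *CREB3L1* and *ITGA10* at 6 h. That block is shared by both times. The block within each time, added after seeing the data, called 16 chains lower at 6 h, 17 lower at 24 h and 13 differences negative and 3 positive, and it lost no call made without pairing. With the block and offsets the 6 h medians of the basement membrane and minor classes were −0.15 and −0.15, and that of the fibrillar class was −0.36.

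The fibrillar 24 h median was −1.58 without *COL5A3* and −1.67 to −0.98 with 1 library left out, and the minor one −0.87 to −0.64. Without *COL6A3* the log2 ratio of the sum of all chains was −0.30 at 6 h and −0.57 at 24 h, and that of the minor sum −0.23 and −0.44. Without *COL1A1* the fibrillar 24 h ratio was −0.028. Without *COL4A2* the basement membrane 24 h ratio was −1.21. By library size only, the 24 h ratios were −0.26 for all chains and −0.95 for basement membrane chains.

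Values that changed sign belonged to uncalled comparisons. By library size only these were, at 24 h, *COL14A1* (0.015), *COL4A6* (0.00033), *COL6A3* (0.061), *SERPINH1* (0.040) and *ITGA2* (0.077). *SERPINH1* was also at 0.030 with the block and offsets, and *ITGA2* at 0.0033 without a filter and 0.0058 in the 6 libraries. The *COL6A2* difference was −0.0010 with DESeq2's size factors, −0.17 with the block and offsets and −0.0028 with DESeq2. With 1 library left out, 24 h values ranged from −0.34 to 0.33 for *COL14A1*, −0.24 to 0.15 for *COL4A6*, −0.14 to 0.067 for *COL6A3*, −0.080 to 0.19 for *P3H4*, −0.13 to 0.057 for *SERPINH1* and −0.063 to 0.098 for *ITGA2*. At 6 h they ranged from −0.65 to 0.023 for *COL16A1*, −0.061 to 0.15 for *COL4A6* and −0.29 to 0.58 for *COL7A1*. Differences ranged from −0.30 to 0.098 for *COL4A6*, −0.099 to 0.12 for *COL6A2* and −0.017 to 0.85 for *COL7A1*. The causes were not tested. Counts limit *COL5A3*, *COL14A1* and *COL24A1*.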
